A study of Mus musculus with 5 samples.

Results

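The 10 genes described here encode members of the BCL2 family, which controls the mitochondrial pathway of apoptosis. They were taken by gene symbol from the deposited table, and all 10 were found among its 24319 usable genes. They are the pro-survival genes *Bcl2*, *Bcl2l1* and *Mcl1*, the effectors *Bax* and *Bak1*, the BH3-only genes *Bcl2l11*, *Bad*, *Bid* and *Bik*, and *Bcl2l15*, a less characterised relative. All 10 had a mean of at least 1 FPKM (fragments per kilobase of transcript, scaled to the mapped fragments of the library, so that levels are per length) and so entered the tests.

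Pro-survival proteins hold BAX and BAK in check at the outer mitochondrial membrane. BH3-only proteins relieve that restraint, after which BAX and BAK form pores, cytochrome c leaves the mitochondria and caspases are activated. In the mammary gland, the BH3-only protein BIM is known for clearing cells from the lumen of growing ducts, and MCL1 for keeping alveolar cells alive through lactation.

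The data are bulk RNA-seq of luminal cells, the inner epithelial layer of the mammary gland, obtained by flow sorting of live cells with high CD24 and low CD29. The labels give *Brca1* genotype wild type for Lum1, Lum2 and Lum3 (replicates 1, 2 and 3) and *Brca1* knockout for Lum4 and Lum5 (replicates 4 and 5), with mammary tissue and a mixed strain shared by all. The labels name no allele, Cre driver, age or animal for any library. In the study's model, floxed *Brca1* is deleted by Cre under the MMTV promoter, which is active in mammary epithelium but not in every cell of it, and the study's suspensions came from virgin and from pregnant mice without a stage being given for each of these libraries. The paper's text speaks of these luminal cells as BRCA1-deficient, whereas 3 of the 5 labels say wild type and the labels are followed here. The labels' extraction protocol speaks of tumors, which the paper's account of these sorted cells does not. Nothing states that the replicates were separate animals, so p-values measure only the spread between these samples.

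*Brca1* itself was at 1.30, 1.32 and 0.234 FPKM in the wild type libraries and at 1.20 and 1.34 FPKM in the knockout libraries, so its level did not separate the labels. A gene-level value does not show whether exons were deleted. The luminal markers *Krt8*, *Krt18*, *Epcam* and *Cdh1* were high in every library, the lowest value being 180 FPKM for *Cdh1* in Lum1. Lum3 stood apart. Its correlation with the other libraries across all genes, which are not independent replicates, was 0.921 to 0.931, against 0.954 to 0.974 among the other 4. All 6 listed mature luminal markers were highest in Lum3 (summed level 414 FPKM against 18.8 to 43.6 FPKM), all 8 proliferation genes were lowest there (7.06 against 57.8 to 122 FPKM), and the 5 milk genes summed to 17684 FPKM against 46144 to 62396 FPKM. Of these 5 genes 4 were lowest in Lum3, and *Lalba*, which encodes alpha-lactalbumin, was highest there (599 against 130 to 185 FPKM). Without Lum3, the proliferation sum was 57.8 and 64.1 FPKM in wild type and 89.1 and 122 FPKM in knockout libraries. The mature luminal sum was then 38.9 and 43.6 against 18.8 and 28.8 FPKM. The labels did not overlap in these sums, which without Lum3 was also so for 39.1% of all tested genes. The 9 leukocyte markers summed to 925 FPKM in Lum2, 470 in Lum5, 248 in Lum3, 27.5 in Lum4 and 26.5 in Lum1. *Cd74* made up most of each sum, at 465 FPKM in Lum5 and 205 FPKM in Lum3, and the other 8 leukocyte markers summed to 229 FPKM in Lum2, 43.1 in Lum3, 5.14 in Lum5, 3.85 in Lum1 and 1.58 in Lum4, so that Lum3 then lay above Lum5. The 6 fibroblast markers summed to 106 FPKM in Lum2 and 84.1 in Lum3 against 3.11 to 12.2 FPKM. The basal markers summed to 13.5 to 139 FPKM, the endothelial markers to 0.138 to 7.20 FPKM and the adipocyte markers to 0.0264 to 0.871 FPKM. The 5 progenitor markers summed to 2284 to 3534 FPKM, most of it *Csn3* at 1738 to 2891 FPKM. Of these 5 markers 2 were lowest in Lum3, such as *Elf5* (102 against 244 to 338 FPKM). Another 2 were highest there, such as *Aldh1a3* (17.4 against 2.39 to 9.88 FPKM). Of the marker genes tested between the labels, 0 passed the threshold in any list (limma with Benjamini-Hochberg adjustment).

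Promoter windows of 300 bases (250 before to 50 after the start, RefSeq, GRCm38.p6) were at hand for 9 of the 10 genes, 13 windows in all, and none for *Bik*. They differed in the number of CG dinucleotides, whose density separates CpG island promoters, typical of genes used in most cells, from promoters of tissue-restricted genes. The *Bcl2l15* window held 0, as do 5.43% of all 32851 windows. The *Bcl2* window held 44 and that of *Mcl1* 33, against a median of 7 over all windows. *Bcl2l1* had 3 windows with 1, 14 and 22. *Bcl2l15*, with the fewest CG, and *Bax*, with 19, are printed here on their own strands with each CG in capitals. *Bcl2l15* was also the gene of the 10 whose level varied most between the libraries. A link between the number of CG and that variation was not tested. The *Bcl2l15* window is chr3:103832446-103832745 on the plus strand and the *Bax* window is chr7:45466849-45467148 on the minus strand.
Bcl2l15: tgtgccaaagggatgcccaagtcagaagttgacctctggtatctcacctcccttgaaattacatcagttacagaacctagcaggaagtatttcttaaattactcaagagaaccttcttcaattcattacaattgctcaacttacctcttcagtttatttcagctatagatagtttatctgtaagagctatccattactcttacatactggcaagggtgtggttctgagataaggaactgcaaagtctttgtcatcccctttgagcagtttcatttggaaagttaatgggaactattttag
Bax: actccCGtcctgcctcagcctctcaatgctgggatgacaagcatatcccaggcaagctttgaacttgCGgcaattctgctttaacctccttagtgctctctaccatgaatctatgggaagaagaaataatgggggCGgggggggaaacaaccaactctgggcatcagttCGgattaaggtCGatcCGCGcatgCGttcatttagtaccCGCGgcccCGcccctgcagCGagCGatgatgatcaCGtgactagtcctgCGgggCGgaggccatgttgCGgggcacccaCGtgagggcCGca
The first sequence has no capitals and the second has 19 pairs.

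A set of motifs was then searched on both strands in these windows. The GC box GGGCGGG lay in 6 of the 13 windows, those of 6 of the 9 genes (*Bcl2*, *Bcl2l11*, *Mcl1*, *Bid*, *Bax* and *Bad*). Of all windows 25.6% held it. The E box CACGTG, a palindrome, was found only in *Bax* among these windows, in 2 places, and in 7.15% of all windows. The forkhead motif TGTTTAC was in 1 window of *Bcl2l11* (3.65% of all windows). The STAT motif TTCNNNGAA (8.30% of all windows) and the palindromic consensus estrogen response element (0.0700%) were in none of the 13 windows, which says only that these letters are not in these stretches.

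The order of levels was led by a pro-survival gene. On the log2(FPKM + 1) scale, the mean level over the 5 libraries was 7.74 ± 0.21 for *Mcl1*, 6.64 ± 0.26 for *Bcl2l1*, 6.09 ± 1.06 for *Bcl2l15*, 5.54 ± 0.34 for *Bax*, 4.52 ± 0.37 for *Bak1*, 4.12 ± 0.37 for *Bcl2l11*, 4.06 ± 0.28 for *Bad*, 3.87 ± 0.79 for *Bik*, 3.67 ± 0.63 for *Bid* and 1.60 ± 0.38 for *Bcl2* (SD, n = 5). *Mcl1* lay above 97.3% of the 11481 tested genes in mean FPKM, and *Bcl2* above 12.7% of them. In all 5 libraries *Mcl1* was above *Bcl2l1*, *Bax* above *Bak1* and *Bid* above *Bcl2*. *Bcl2l1* was above *Bcl2l15* in 3 of 5 libraries, *Bcl2l15* above *Bax* in 4 of 5 and *Bak1* above *Bcl2l11* in 3 of 5, and *Bcl2l11*, *Bad*, *Bik* and *Bid* changed places from library to library, so these neighbours did not differ beyond their spread.

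**Figure D1:**
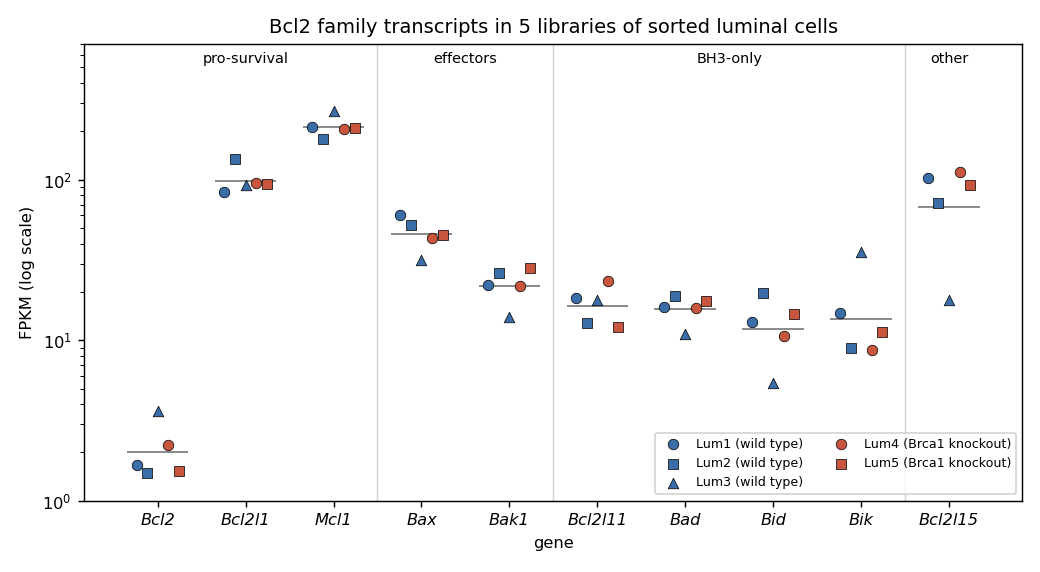
FPKM (log axis) of the 10 genes in each library, grouped by role; blue symbols are wild type and red symbols *Brca1* knockout libraries, and the grey line is the mean of log2(FPKM + 1) turned back to FPKM. *Mcl1* sits at the top between 179 and 267 FPKM, *Bcl2* at the bottom between 1.50 and 3.65 FPKM, and the triangle of Lum3 lies outside the other 4 points in 8 of the 10 genes.

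*Mcl1*, whose protein is short-lived and must be made continually, was at 213, 179 and 267 FPKM in the wild type libraries and at 208 and 208 FPKM in the knockout libraries. The knockout values lay inside the wild type range. *Mcl1* (ENSMUSG00000038612) lies on chromosome 3 of mm10, from 95658788 to 95663176 on the plus strand. *Bcl2l1* (chromosome 2, 152780668 to 152831728, minus strand) encodes BCL-xL and, by splicing, a shorter product that promotes death, which a gene-level value cannot separate. It was at 83.7, 135 and 92.5 FPKM in the wild type libraries and at 95.2 and 93.9 FPKM in the knockout libraries. Lum2 was high and the other 4 libraries lay close together. *Bcl2* (minus strand of chromosome 1, 106538178 to 106714274), the founding member of the family, was at 1.68, 1.50 and 3.65 FPKM in the wild type libraries and at 2.21 and 1.53 FPKM in the knockout libraries. Lum3 was the highest library, and the *Bcl2* values rest on about 74.8 fragments in Lum1 and 796 in Lum3 by an approximate estimate. Of the summed FPKM of the 3 pro-survival genes, *Mcl1* made up 56.7% to 73.5%, *Bcl2l1* 25.5% to 42.8% and *Bcl2* 0.475% to 1.00%.

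The effectors *Bax* and *Bak1* were both lowest in Lum3. *Bax* (minus strand of chromosome 7, 45461697 to 45466898) had 60.4, 52.2 and 31.8 FPKM in the wild type libraries and at 43.3 and 45.3 FPKM in the knockout libraries. *Bak1* (minus strand of chromosome 17, 27019810 to 27029009) had 22.2, 26.1 and 14.0 FPKM against 21.9 and 28.0 FPKM. The knockout values of *Bax* fell between those of Lum3 and the other wild type libraries, and those of *Bak1* overlapped with Lum1 and Lum2. The ratio of *Bax* to *Bak1* was 1.62 to 2.72, and *Bax* exceeded *Bcl2* 8.72 times in Lum3 and 19.6 to 35.9 times in the other libraries. *Bak1* shares 614 exonic bases with *Ggnbp1* on the other strand, which was at 1.00 to 2.91 FPKM, and the library kit is not stated to keep strand.

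Among the BH3-only genes, *Bcl2l11*, which encodes BIM, was at 18.3, 12.9 and 17.7 FPKM in the wild type libraries and at 23.4 and 12.0 FPKM in the knockout libraries (chromosome 2, 128126038 to 128162547). The knockout libraries held both its highest and its lowest value. *Bad*, whose protein is silenced by phosphorylation downstream of growth factors, was at 16.2, 18.9 and 10.9 FPKM against 16.0 and 17.5 FPKM (chromosome 19, 6941861 to 6951899). It was low in Lum3 and close to level elsewhere. *Bid*, whose protein is cut by caspase 8 and links death receptors to mitochondria, was at 12.9, 19.7 and 5.44 FPKM against 10.6 and 14.5 FPKM (chromosome 6, 120891930 to 120916853). Lum3 was again the lowest, and the mean of the other libraries was 2.66 times its value. *Bad* shares 524 exonic bases with *Gpr137* (5.85 to 7.87 FPKM) and *Bid* 628 with *Bcl2l13* (6.05 to 10.2 FPKM), in both cases on opposite strands, so their reads cannot be told apart there. Exons of *Bcl2*, *Bcl2l15* and *Bax* also overlap with annotated genes that have no row in the table, by 558, 569 and 192 bases.

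*Bik*, an endoplasmic reticulum-associated BH3-only gene, went the other way. It was at 14.7, 8.95 and 35.7 FPKM in the wild type libraries and at 8.63 and 11.2 FPKM in the knockout libraries (chromosome 15, 83526862 to 83544634, plus strand). Lum3 was 3.28 times the mean of the others. Through this, *Bik* made up 51.1% of the summed BH3-only FPKM in Lum3 and 14.7% to 23.7% in the other libraries, while *Bid* made up 7.80% in Lum3 and 18.1% to 32.6% elsewhere. The sum itself was 69.7 FPKM in Lum3 and 55.3 to 62.2 FPKM in the others.

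*Bcl2l15* (ENSMUSG00000044165, chromosome 3, 103832601 to 103854618, plus strand) had the widest range of the 10 genes. It was at 102, 72.0 and 17.9 FPKM in the wild type libraries and at 112 and 92.0 FPKM in the knockout libraries. Lum3 was the lowest by far, and the mean of the other libraries was 5.26 times its value. The SD of *Bcl2l15* over the libraries (1.06 in log2(FPKM + 1)) was larger than that of 94.2% of the tested genes, that of *Bik* (0.79) than 90.4% and that of *Mcl1* (0.21) than 25.6%. Without Lum3 the SD of *Bcl2l15* was 0.27. In 2 of the 10 genes, *Bcl2l1* and *Bcl2l15*, a single library stood apart from the other 4 (a gap of over 0.71 of the whole range), beside 13.0% of all tested genes.

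Lum3 was the lowest library for 5 of the 10 genes (*Bax*, *Bak1*, *Bad*, *Bid* and *Bcl2l15*) and the highest for 3 (*Bcl2*, *Mcl1* and *Bik*). Over all tested genes it was the lowest for 51.9% and the highest for 18.5%, so the share that was lowest was near that of the whole table. These positions were the same under median-of-ratios scaling, which raised the median gene of Lum3 by 0.18 (log2), and under quantile normalization, which raised it by 0.13. From the mean of the other libraries, Lum3 differed by -2.31 (log2) for *Bcl2l15*, -1.23 for *Bid*, -0.76 for *Bak1*, -0.63 for *Bax*, -0.60 for *Bad*, 0.40 for *Mcl1*, 0.77 for *Bcl2* and 1.65 for *Bik*. The mature luminal markers and proliferation genes given above moved with it, and their part in these differences was not tested. In bulk samples, fewer cells of a type and less RNA per cell cannot be told apart.

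**Figure D2:**
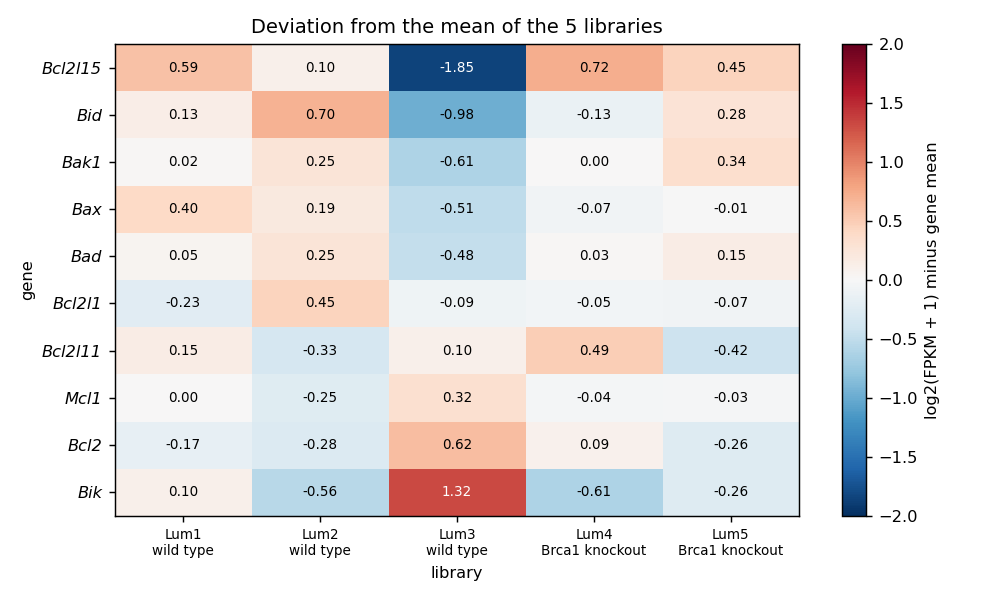
Deviation of each gene (rows) in each library (columns) from that gene's mean over the 5 libraries, in log2(FPKM + 1), with red above and blue below the mean. The column of Lum3 holds both extremes, -1.85 for *Bcl2l15* and 1.32 for *Bik*.

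The genes whose profile over the 5 libraries lay nearest to that of *Bik* (root mean square distance of log2(FPKM + 1) centred on each gene's mean) were *Ndrg2* at 0.08, *Dusp10* at 0.10, *Tmprss2* at 0.12, *Flnc* at 0.13 and *Grb14* at 0.14. *Tmprss2*, a transmembrane serine protease gene, was at 67.8 FPKM in Lum3, where the other libraries had 17.3 to 25.9 FPKM. Nearest to *Bcl2l15* were *Calml3* at 0.10, *Cited4* at 0.12, *Atp6v1c2* at 0.12, *Syt9* at 0.13 and *Dbi* at 0.15. *Cited4*, a transcriptional co-regulator gene, was at 38.2 FPKM in Lum3 and between 148 and 221 FPKM elsewhere. *Dbi*, which encodes the acyl-CoA binding protein, was at 198 FPKM in Lum3 and between 767 and 1072 FPKM elsewhere. This likeness rests on 5 libraries and mostly on Lum3. Outside that rule and chosen after its values were seen, *Diablo*, whose protein leaves mitochondria with cytochrome c, was the fourth nearest gene to *Bax*, at 0.04.

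The summed FPKM of the pro-survival genes was 298, 316 and 363 in the wild type libraries and 306 and 304 in the knockout libraries. The summed FPKM of the effectors was 82.6, 78.3 and 45.8 against 65.1 and 73.3. Lum3 thus held the highest pro-survival sum and the lowest effector sum. The pro-survival sum was 3.61, 4.03 and 7.93 times the effector sum in the wild type libraries and 4.69 and 4.15 times in the knockout libraries. On the log2 scale this balance was 2.28 ± 0.61 (SD, n = 3) for wild type and 2.14 ± 0.13 (SD, n = 2) for knockout, and the labels did not differ beyond the spread (p = 1.0, two-sided exact permutation test, whose smallest possible p is 0.2 with 3 and 2 libraries). Without Lum3 the difference between knockout and wild type turned from -0.14 to 0.21. The BH3-only sum was 62.2, 60.4 and 69.7 FPKM in the wild type libraries and 58.7 and 55.3 FPKM in the knockout libraries. Here the labels did not overlap, which was also so for 23.3% of all tested genes. The difference of -0.17 (log2) had the smallest p the design allows (exact permutation test, p = 0.2), so this test cannot decide whether the labels differ. The labels overlapped in the other sums, with a difference of -0.09 for the pro-survival sum (exact permutation test, p = 0.6) and 0.05 for the effector sum. No adjustment was made for testing several sums.

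**Figure D3:**
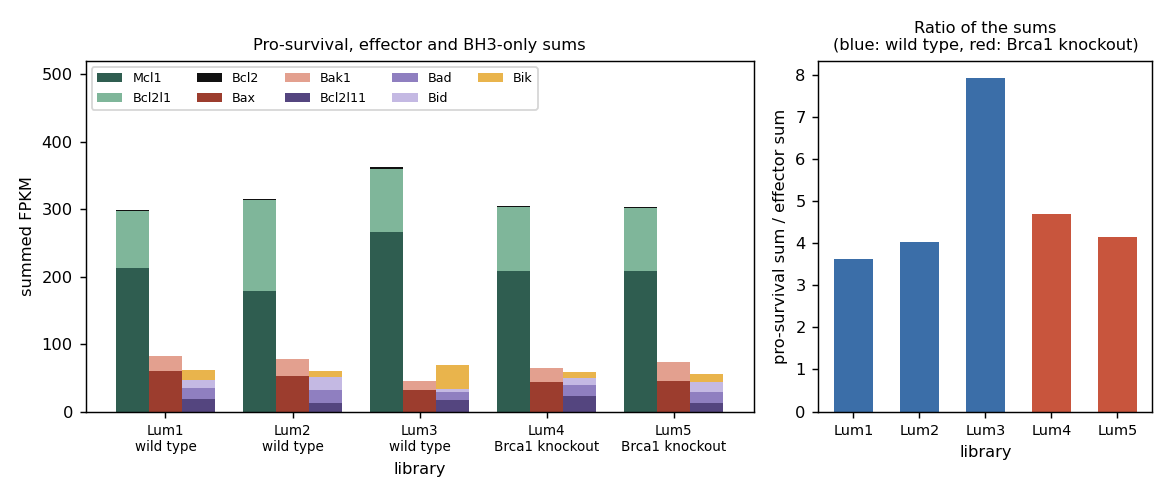
Left, summed FPKM in each library of the pro-survival, effector and BH3-only genes (stacked bars from left to right within a library, 1 colour per gene); right, the ratio of the pro-survival to the effector sum, with wild type libraries in blue and *Brca1* knockout libraries in red. The ratio is 7.93 in Lum3 and between 3.61 and 4.69 in the other libraries.

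Between *Brca1* knockout and wild type, 0 of the 10 genes passed an adjusted p of 0.05, and 0% of the 11481 tested genes did (limma with Benjamini-Hochberg adjustment). At an unadjusted p under 0.05 there were 0 of the 10 genes and 372 of all tested genes. The largest differences were those of *Bcl2l15*, with a log2 fold change of 0.97 (standard error 0.74, adjusted p = 0.92), and *Bik*, with -0.72 (standard error 0.56, adjusted p = 0.92). The 95% interval of the *Bcl2l15* difference ran from -0.89 to 2.83. For *Mcl1* the log2 fold change was -0.06 and its interval -0.64 to 0.53, and the sign turned under quantile normalization (0.008). The log2 fold changes of the other 7 genes lay between -0.14 for *Bcl2* and 0.29 for *Bak1*, where the median over all tested genes was 0.11.

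Leaving out Lum3 moved most of these values. The log2 fold change of *Bcl2l15* became 0.24, that of *Bik* -0.20, that of *Bax* -0.34 and that of *Bid* -0.34, and the signs of *Bcl2* (0.14), *Mcl1* (0.09), *Bad* (-0.06) and *Bid* turned. No gene of the 10 passed the threshold in that fit either, and the adjusted p of *Bax* was 0.67 (limma with Benjamini-Hochberg adjustment), where its values over all alternatives ran from 0.312 to 1.0. In none of the 10 genes did the values of the labels fail to overlap, against 23.3% of all tested genes whose groups did not overlap in one direction or the other. Without Lum3, *Bax* was the one gene of the 10 without overlap (60.4 and 52.2 against 43.3 and 45.3 FPKM), where 39.1% of all tested genes had none.

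**Figure D4:**
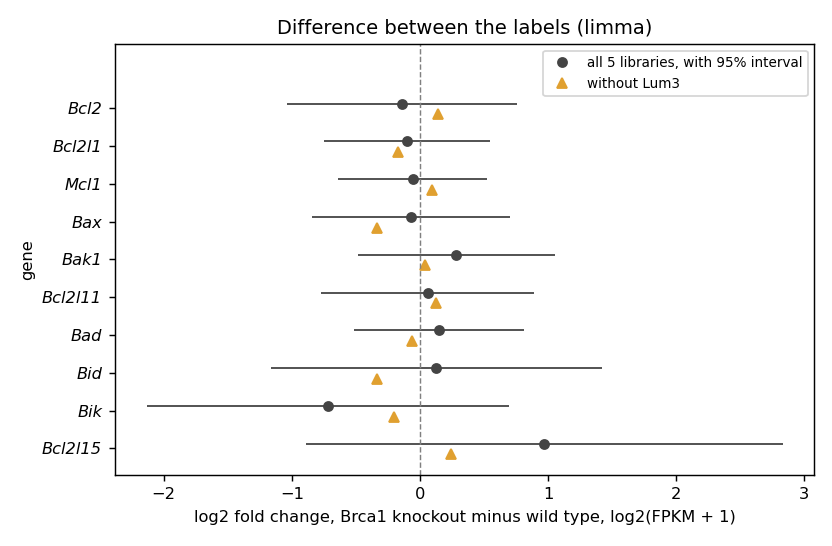
Log2 fold change between *Brca1* knockout and wild type for each gene from limma on log2(FPKM + 1); grey circles with lines are the estimate and 95% interval from all 5 libraries, and yellow triangles the estimate without Lum3. All 10 intervals contain 0, and the widest belongs to *Bcl2l15*, from -0.89 to 2.83.

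Other genes of the pathway were read from the same fit. Of the 6 other pro-survival genes 4 were tested and 0 were called (median log2 fold change -0.20, beside 0.11 over all tested genes). *Bcl2l2*, which encodes BCL-w, lay between 5.92 and 8.86 FPKM. *Bcl2a1b* was at 14.0 FPKM in Lum2 and 1.32 to 3.22 FPKM elsewhere, and *Bcl2a1d* at 6.56 FPKM in Lum2 and 0.874 to 4.53 FPKM elsewhere. The *Bcl2a1* copies are nearly identical, so reads may be split between them, and leukocytes are known to express them. Lum2 was the highest library for these copies, for *Bcl2l1* and for the leukocyte sum given above, with or without *Cd74*. The leukocyte marker *Ptprc* was at 4.93 FPKM in Lum2 and 0.0603 to 2.69 FPKM elsewhere, and *Cd3g* was listed at 0 in Lum1, Lum4 and Lum5. The part of leukocytes in the *Bcl2l1* and *Bcl2a1* levels was not tested. *Bok*, the third effector gene, stayed between 0.298 and 1.22 FPKM and was not tested because its mean was under 1 FPKM.

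Of the 6 other BH3-only genes 5 were tested and 0 were called (median log2 fold change -0.07). The p53 target *Bbc3*, which encodes PUMA, lay between 5.65 and 9.15 FPKM, and *Bnip3l*, a mitophagy receptor gene, was the highest at 17.6 to 25.5 FPKM. Its relative *Bnip3* lay between 5.44 and 7.75 FPKM. *Hrk*, the one not tested, stayed at or under 0.0602 FPKM. Of the 4 other genes listed for a related name all were tested and 0 were called (median log2 fold change 0.28). *Bnipl*, whose name refers to a BCL2-interacting protein and not to a *Bcl2*-like gene, was the highest at 7.82 to 16.0 FPKM.

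Downstream of the mitochondria, 0 of 8 apoptosome and caspase genes were called (median log2 fold change 0.17). *Cycs*, which encodes cytochrome c, lay between 30.6 and 38.5 FPKM. Of the 8 genes 6 were lowest in Lum3, beside 51.9% of all tested genes.

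Of the 7 genes for inhibitors of apoptosis and their antagonists 0 were called (median log2 fold change 0.19). *Birc3* and *Birc2*, which encode the cellular IAPs, lay between 42.9 and 59.4 FPKM and between 22.3 and 35.5 FPKM. *Birc5*, which encodes survivin and also acts in mitosis, was at 1.18 FPKM in Lum3 and 17.0 to 26.8 FPKM elsewhere, and the proliferation genes were lowest in the same library. In the death receptor arm 0 of 7 genes were called (median log2 fold change 0.22). *Tnfrsf1a*, a TNF receptor gene, was the highest at 42.8 to 62.4 FPKM, and *Cflar*, which encodes the caspase 8 inhibitor FLIP, lay between 10.4 and 16.5 FPKM. Of these 7 genes 6 were lowest in Lum3 and 1 was highest.

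Of the 9 genes for outer membrane partners and MCL1 turnover 0 were called (median log2 fold change 0.08). *Vdac1* and *Vdac2* encode channels of the outer mitochondrial membrane, the latter a partner of BAK. *Vdac1* lay between 103 and 119 FPKM in the 5 libraries and *Vdac2* between 81.3 and 113 FPKM. *Bag1*, a co-chaperone gene, lay between 63.6 and 93.0 FPKM.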

How the data were processed

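Sequencing libraries of luminal cells were aligned to mm10 and quantified by the authors with Cufflinks 2.2.1. The deposited values are FPKM, in 1 table with 24346 rows and a column for each of the 5 libraries. The paper gives TopHat for alignment, in another version than the TopHat2 2.0.13 of the submitters' processing notes. Those notes also list Trimmomatic 0.35. The annotation is not given in the sources used here. In 27 rows the gene name had become a date, and these were left out.

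The table holds no counts. The steps of low FPKM in genes with 1 transcript gave approximate depths of 6180000, 12900000, 30400000, 6340000 and 21300000 fragments for Lum1 to Lum5, but only 52.1% to 58.2% of the low values lay within 0.15 of a whole number (30% by chance), so no count model was run. These estimates, taken on the longest coding transcript (GENCODE M21, GRCm38, which is mm10), cover counting error only.

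FPKM were analysed as log2(FPKM + 1), which understates changes of low genes. Labels were compared with limma 3.58.1 in R 4.3.3 (lmFit and eBayes with trend) over the 11481 genes whose mean reached 1 FPKM, and single values by an exact permutation test in scipy 1.17.1. The script was tested on simulated data. The genes and lists were chosen with earlier results of these data known. The 10 genes are named with every value. Of each other list of the pathway at most 3 genes with the highest mean FPKM are named, beside those that were not tested, and marker genes named singly were chosen after their values were seen. Some genes of these lists are not reported here by name. Likeness is given for the 2 genes with the largest SD. Alternatives were another pseudocount (0.1), other filters, scalings, settings of limma and each replicate left out.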

Additional observations from a re-analysis of the deposited data

Results flagged for a closer look

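With the 5 libraries taken as one group, 1 library stood apart (the gap to its neighbour was over 0.71 of the whole range in log2(FPKM + 1)) for 2 of the 10 genes, beside 13.0% of all tested genes. Chance flags about 1 in 20 groups. *Bcl2l1* was at 135.0 FPKM in Lum2, where the others had 83.7 to 95.2 FPKM. *Bcl2l15* was at 17.9 FPKM in Lum3, where the others had 72.0 to 112 FPKM. The balance of pro-survival over effector sums, highest in Lum3, stayed under the same criterion at 0.668.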

How the results depend on the processing

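The count of called genes, 0 with all libraries and a filter on the mean, was 2 without a filter (*2410004P03Rik* and *Defb42*), 1 with array weights (*H2-Q8*) and 0 to 18 with a replicate left out; fewer libraries entered those last fits, and a lone library is assumed there to vary like the others. It was 18 without Lum4, 4 without Lum5 (*Mir207*, *Mir3102*, *Mir5121* and *Rnu73b*) and 2 without Lum1 (*Mir3082* and *Snord69*), and 0 of these were among the 10 genes. Genes at an unadjusted p under 0.05 numbered 372 with all libraries, 2799 with array weights, 877 without a filter, 868 without Lum1, 842 without Lum3, 228 without Lum2, 149 without Lum4 and 113 without Lum5.

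None of the 10 genes was called under any alternative. Array weights, which weight libraries by how well they fit their group, turned the log2 fold changes of *Bcl2* to 0.16, *Mcl1* to 0.18, *Bak1* to -0.037, *Bad* to -0.13, *Bid* to -0.54 and *Bik* to 0.029, and the cause was not tested. Median-of-ratios scaling turned *Bcl2l11* to -0.048, and quantile normalization turned *Bcl2l11* to -0.029 and *Mcl1* to 0.008. With a replicate left out, the log2 fold changes ran from -0.31 to 0.14 for *Bcl2*, -0.24 to 0.10 for *Bcl2l1*, -0.194 to 0.092 for *Mcl1*, -0.34 to 0.12 for *Bax*, -0.39 to 0.51 for *Bcl2l11*, -0.061 to 0.306 for *Bad* and -0.34 to 0.505 for *Bid*, all of which changed sign, and from 0.037 to 0.465 for *Bak1*, -1.14 to -0.20 for *Bik* and 0.24 to 1.46 for *Bcl2l15*, which did not. The balance difference ran from -0.36 to 0.21 with a replicate left out. Mean levels of the 10 genes moved by less than 1 SD under median-of-ratios scaling and under quantile normalization. Leaving out a replicate cannot move a mean by 1 SD of the same libraries, so that criterion says nothing about those settings. Without Lum3 the mean level of *Bcl2l15* went from 6.09 to 6.56 and that of *Bik* from 3.87 to 3.54, in log2(FPKM + 1). The scaling comparison for Lum3 and the overlap without Lum3 were added after the data were seen. No paired analysis was possible because the labels share no replicate numbers. The lowest depths behind a value of the 10 genes were about 73.1 fragments for *Bik* in Lum4 and 74.8 for *Bcl2* in Lum1.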
